A study of Mus musculus with 56 samples.

Results

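Regulatory T cells (Tregs) of the spleen were compared between mice kept for 2 weeks on the diet labelled HFD and mice kept for 2 weeks on the diet labelled NCD, with 3 libraries in each group. The comparison used 6 of the 56 libraries of a series on Treg transcription in obesity, chosen by their titles, and covered all expressed genes. The HFD and the NCD mice were C57BL/6 animals of genotype vTreg53 Tg+, which carry a transgenic T cell receptor taken from a Treg of visceral adipose tissue (VAT), and both diets began at 12 weeks of age. Cells bearing that receptor were sorted, 1000 cells went into each library, and polyadenylated RNA was amplified and sequenced as paired reads of 38 bases. All mice shared the receptor transgene, so cells of other specificities and mice without the transgene are not part of the comparison. The labels call the mice recipients without saying what was transferred, and do not say whether the 3 libraries of a group came from separate mice. The p-values therefore measure a spread between libraries, which the edgeR fits estimated over all the libraries they held. The tissue label of these 6 libraries reads VAT whereas their titles read spleen, and the titles were followed.

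Tregs are the CD4 T cells that hold immune responses in check, and Foxp3 is the transcription factor that defines them. In the spleen most of them are in a resting, recirculating state, marked by Ccr7 and Tcf7, and a smaller part are effector Tregs, which carry Icos, Klrg1 and Maf and divide more often. Cells keep their sterol supply steady by a feedback loop: when sterol in the membrane of the endoplasmic reticulum falls, the transcription factor SREBP2 (gene Srebf2) is released and switches on the enzymes of cholesterol synthesis.

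Total counts were 3493761, 4200066 and 3779884 in the HFD libraries and 4262050, 4203709 and 5826965 in the NCD libraries, and every HFD total was below every NCD total (two-sided exact permutation test, p = 0.1, the smallest that 3 against 3 allows). Levels are given as CPM, counts scaled to a common library size of 1000000 after TMM scaling, which divides each library by a factor estimated from most of its genes. Detection was limited to 3 counts, or 0.519 to 0.853 CPM in these 6 libraries. Foxp3 was at 770, 873 and 776 CPM in HFD Tregs and 737, 732 and 722 CPM in NCD Tregs, and the receptor segment Trbv2 took 90.2 to 92.5% of the counts over beta-chain variable segments. Cd8a was at 0 to 0.959 CPM, and the granulocyte genes S100a8 and S100a9 had no count in any of the 6. HFD replicate 3 stood apart from the other 25 spleen libraries: it had 17004 genes with a count against 18285 to 21521, it lay at 94.28 on the second principal component (8.6% of the variance) against -34.43 to 7.709, and 1080 of the tested genes had no count in it, against 262 to 442 in the other 5 libraries compared. Results that rest on this library are also given without it.

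After 2 weeks few differences between the diets passed the test: of 14686 genes tested, 4 were called, which is 0.0272%, among them Icos and Car5b, which were higher with HFD, and Unk, which was lower. The test was edgeR's quasi-likelihood test with Benjamini-Hochberg adjustment, and a gene was called at an adjusted p under 0.05. To estimate the spread, the fit held all 26 spleen libraries in their 9 groups, while the contrast used only the 6 of week 2. Without adjustment, 1402 genes had p under 0.05. Of these, 738 genes (5.03%) were higher and 664 (4.52%) lower with HFD. The 3 HFD libraries lay wholly above the 3 NCD libraries for 959 genes (6.53%) and wholly below them for 1044 (7.11%). The median log2 fold change over all tested genes was 0.000256.

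Icos, a costimulatory receptor of the CD28 family that effector Tregs carry at high density, was at 493, 479 and 375 CPM in HFD Tregs and 275, 209 and 161 CPM in NCD Tregs. Every HFD library was above every NCD library, and the means were 449 ± 64.4 CPM with HFD and 215 ± 57.2 CPM with NCD (SD, n = 3 each). The log2 fold change of Icos was 1.06 ± 0.17 (SE, edgeR adjusted p = 0.0111), which is 2.09-fold higher with HFD. Icos lies on chromosome 1 from 60977927 to 61000320 on the plus strand (mm10), and the predicted gene Gm37039 overlaps it on the same strand, so reads shared between them could have been counted for either or neither.

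Car5b encodes a carbonic anhydrase of mitochondria, and it was at 16.2, 18.7 and 29.9 CPM in HFD Tregs and 3.30, 1.92 and 4.33 CPM in NCD Tregs. The counts behind these levels were 251 over the 3 HFD libraries and 47 over the 3 NCD libraries. HFD replicate 3 had the highest value, and all HFD libraries were above all NCD libraries. The log2 fold change of Car5b was 2.73 ± 0.49 (SE, edgeR adjusted p = 0.0307), or 6.65-fold. Car5b lies on chromosome X from 163976822 to 164027997 on the minus strand.

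Unk, which encodes the zinc finger RNA-binding protein Unkempt, was at 45.2, 42.1 and 32.5 CPM in HFD Tregs and 82.4, 80.3 and 76.8 CPM in NCD Tregs. The NCD values were close together and all above the HFD values. The log2 fold change of Unk was -0.998 ± 0.18 (SE, edgeR adjusted p = 0.0307). Unk lies on chromosome 11 from 116030322 to 116061214 on the plus strand.

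**Figure D1:**
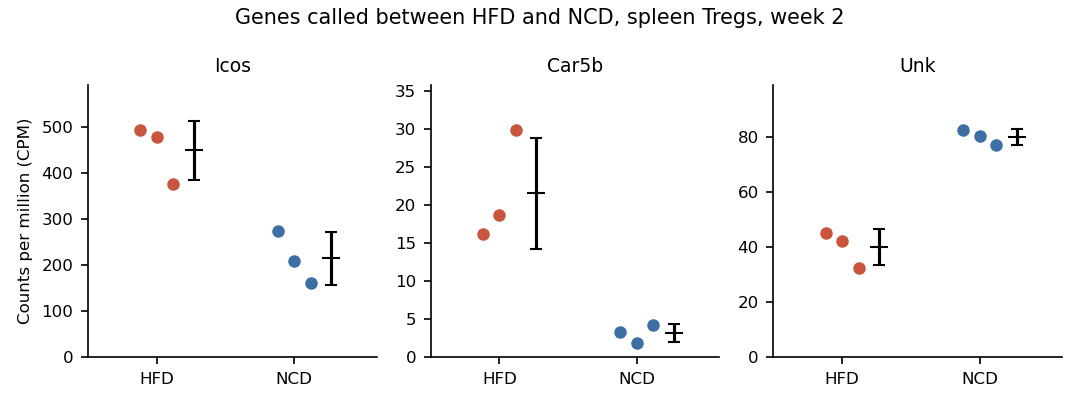
Level in CPM of Icos, Car5b and Unk in each library, HFD left of NCD (points, 3 libraries each); the bar beside each group is its mean ± SD. Icos and Car5b are higher in all 3 HFD libraries than in all 3 NCD libraries, and Unk is lower.

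With RLE in place of TMM scaling the same 4 genes were called, whereas single libraries decided the calls. Without HFD replicate 3, Icos alone was called, at a log2 fold change of 1.19 (edgeR adjusted p = 0.0115), while Car5b was at 2.44 (edgeR adjusted p = 0.132) and Unk at -0.86 (edgeR adjusted p = 0.182). Leaving out HFD replicate 1, HFD replicate 2 or NCD replicate 2 left 0 genes called. Without NCD replicate 1, Icos alone was called (1.29, edgeR adjusted p = 0.00125), and without NCD replicate 3, Cpt1a was called (1.26, edgeR adjusted p = 0.0227) while Icos, Car5b and Unk were not. These fold changes kept their direction in each of these fits, with Icos from 0.88 to 1.29, Car5b from 2.44 to 3.03 and Unk from -1.09 to -0.86.

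Sterol and fatty acid synthesis and its regulation were followed through a list of 32 genes, of which 29 were tested. None of the 11 members named below was called by edgeR, while DESeq2 called Fdft1 and Srebf2. In edgeR 11 members had an unadjusted p under 0.05 and were lower with HFD, beside 4.52% of all genes, and 0 were higher, beside 5.03%. Negative log2 fold changes were found for 24 of the 29, with a median of -0.37 beside 0.000256 for all genes, and 9 had HFD libraries wholly below the NCD libraries, beside 7.11% of all genes. Without HFD replicate 3 these counts were 10 lower and 2 higher of 29, with a median of -0.29, where 3.95% and 5.2% of all genes were past the same threshold. Without NCD replicate 2, 6 were lower and 0 higher, beside 3.52% and 4.22% of all genes, with a median of -0.31. The summed level of the list was 2110, 1978 and 2020 CPM in HFD Tregs and 2442, 2341 and 2266 CPM in NCD Tregs, so the groups did not overlap.

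The promoters of 3 members are shown because the known route from sterol level to these genes runs through 2 short motifs, the sterol regulatory element bound by SREBP2 and the CCAAT box bound by its partner NF-Y. Each line gives the 250 bases before the annotated start in the orientation of the gene, from RefSeq on build GRCm38.p6, and capitals mark matches to TCACNCCAC or CCAAT on either strand (CCAAT reads ATTGG on the other strand). Hmgcs1 is at chr13:119690101-119690350 on the plus strand, Msmo1 at chr8:64733579-64733828 on the minus strand and Srebf2 at chr15:82147019-82147268 on the plus strand.
Hmgcs1: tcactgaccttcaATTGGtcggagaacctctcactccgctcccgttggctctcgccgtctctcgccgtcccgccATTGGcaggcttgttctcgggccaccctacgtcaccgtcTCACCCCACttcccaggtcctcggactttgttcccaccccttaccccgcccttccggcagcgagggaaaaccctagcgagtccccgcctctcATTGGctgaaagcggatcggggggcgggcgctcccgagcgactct
Msmo1: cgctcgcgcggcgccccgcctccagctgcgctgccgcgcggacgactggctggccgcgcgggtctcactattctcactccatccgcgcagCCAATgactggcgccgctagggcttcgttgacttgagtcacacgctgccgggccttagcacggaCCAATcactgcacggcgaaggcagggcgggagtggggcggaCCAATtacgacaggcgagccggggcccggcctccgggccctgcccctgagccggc
Srebf2: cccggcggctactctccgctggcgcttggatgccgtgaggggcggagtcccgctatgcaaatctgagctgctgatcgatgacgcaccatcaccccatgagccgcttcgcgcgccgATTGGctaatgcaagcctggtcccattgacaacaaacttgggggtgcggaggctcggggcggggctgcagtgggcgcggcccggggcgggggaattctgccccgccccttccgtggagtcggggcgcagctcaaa

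Over these windows, 20 of the 32 list genes had an entry, with 24 promoters. CCAAT was found in 16 of the 24 (66.7%), beside 11120 of all 32851 promoters (33.8%). TCACNCCAC was found in 1 of the 24 (4.17%), that of Hmgcs1, beside 346 of all promoters (1.05%). A match is a run of letters and not a site shown to be bound.

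Several enzymes of cholesterol synthesis had small p without being called. Fdft1 (squalene synthase, the first step committed to sterols) was at 29.9, 27.4 and 16.5 CPM in HFD Tregs and 47.1, 47.7 and 38.9 CPM in NCD Tregs, a log2 fold change of -0.86 ± 0.20 (SE, edgeR adjusted p = 0.189); it overlaps Ctsb on the other strand, and the kit does not mark strand. Hmgcs1, which makes HMG-CoA, an early intermediate of the route, was at 77.9, 79.1 and 87.4 CPM with HFD and 130, 123 and 118 CPM with NCD, at -0.60 ± 0.15 (edgeR adjusted p = 0.257). The groups of both enzymes did not overlap, and neither passed the test. Cyp51, a demethylase of lanosterol, was at 77.6, 66.2 and 83.2 CPM with HFD and 105, 122 and 116 CPM with NCD (-0.60, edgeR adjusted p = 0.276). Msmo1, which acts on the next sterols of the chain, was at 80.8, 65 and 71.9 CPM with HFD and 110, 99.9 and 108 CPM with NCD (-0.55, edgeR adjusted p = 0.353). Sqle, the squalene epoxidase, was at 44.1, 37.0 and 44.1 CPM with HFD and 53, 70.5 and 55.7 CPM with NCD (-0.52, edgeR adjusted p = 0.424). In each of these enzymes the highest HFD library was below the lowest NCD library.

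Srebf2, the regulator of the sterol branch, was at 152, 139 and 140 CPM in HFD Tregs and 180, 199 and 200 CPM in NCD Tregs (log2 fold change -0.42, edgeR adjusted p = 0.257), again with no overlap. Srebf1, the regulator linked more to fatty acid synthesis, was at 147, 109 and 146 CPM with HFD and 124, 170 and 164 CPM with NCD, and its groups overlapped (-0.19, edgeR adjusted p = 0.699). The fatty acid enzymes Fasn (-0.19) and Scd2 (-0.03) overlapped as well. Abca1 and Abcg1, which export cholesterol and are switched on when sterol is plentiful, were at log2 fold changes of 0.58 (edgeR adjusted p = 0.571) and 0.33 (edgeR adjusted p = 0.628), with overlapping groups.

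The list of effector Treg genes, which holds Icos, had 28 members, all tested. Of these, 17 had an unadjusted p under 0.05 in edgeR and were higher with HFD, beside 5.03% of all genes, and 0 were lower, beside 4.52%. Positive log2 fold changes were found for 27 of the 28, with a median of 0.82. HFD libraries lay wholly above the NCD libraries for 15, beside 6.53% of all genes. Icos alone was called in the filtered edgeR fit of all spleen libraries. The calls depended on the fit. With only the groups compared and the replicate number as a block, edgeR also called Lag3, Lgals1 and Rora, described below. Their edgeR adjusted p was 0.0222, 0.0222 and 0.0471. Without the block, that fit called Icos but none of these. The summed level of the list was 4302, 4520 and 2668 CPM in HFD Tregs and 2469, 2406 and 1994 CPM in NCD Tregs. HFD replicates 1 and 2 were well above the NCD libraries, whereas HFD replicate 3 was just above the highest of them. Without HFD replicate 3, 21 of the 28 were past the unadjusted threshold upward, beside 5.2% of all genes, with a median of 1.14. Without HFD replicate 2 there were 10 upward and 1 downward, beside 4.58% and 4.49% of all genes, with a median of 0.72. In a bulk library, a larger share of effector cells and more RNA of these genes in each cell cannot be told apart.

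Maf, a transcription factor of effector Tregs, was at 178, 260 and 161 CPM in HFD Tregs and 117, 81.7 and 75.8 CPM in NCD Tregs (log2 fold change 1.13 ± 0.28 SE, edgeR adjusted p = 0.276). Prdm1, which encodes Blimp-1, a regulator of terminal effector differentiation, was at 52.3, 55.0 and 34.1 CPM with HFD and 19.8, 30.0 and 23 CPM with NCD (0.96, edgeR adjusted p = 0.392). Rora was at 206, 185 and 167 CPM with HFD and 124, 111 and 90.3 CPM with NCD (0.78, edgeR adjusted p = 0.381). These 3 regulators were each higher in every HFD library than in any NCD library. They did not pass the test in the fit of all spleen libraries. The inhibitory receptor Lag3 was at 107, 168 and 95.3 CPM with HFD and 49.9, 67.6 and 42.4 CPM with NCD (1.22, edgeR adjusted p = 0.334), and the inhibitory receptor Pdcd1 was at 184, 323 and 157 CPM with HFD and 132, 130 and 113 CPM with NCD (0.83, edgeR adjusted p = 0.493).

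HFD replicate 3 was the lowest HFD library for most of these genes. Gzmb, a cytotoxic granule protease, was at 348, 163 and 88.7 CPM with HFD and 41.7, 73.1 and 69.4 CPM with NCD (log2 fold change 1.70 ± 0.68 SE, edgeR adjusted p = 0.432). Klrg1, a receptor of late effector cells, was at 365, 318 and 166 CPM with HFD and 172, 181 and 129 CPM with NCD (0.82, edgeR adjusted p = 0.662), so the groups overlapped through HFD replicate 3 alone. Lgals1, a galectin, was at 241, 255 and 178 CPM with HFD and 146, 108 and 81.5 CPM with NCD (1.01, edgeR adjusted p = 0.334). Il10 was the 1 member with a negative log2 fold change, at 2.27, 13.3 and 0.262 CPM with HFD and 3.06, 11.5 and 7.10 CPM with NCD. The difference in Gata3 was within the spread, at 302, 345 and 252 CPM with HFD and 317, 296 and 268 CPM with NCD (0.03, edgeR adjusted p = 0.967).

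**Figure D2:**
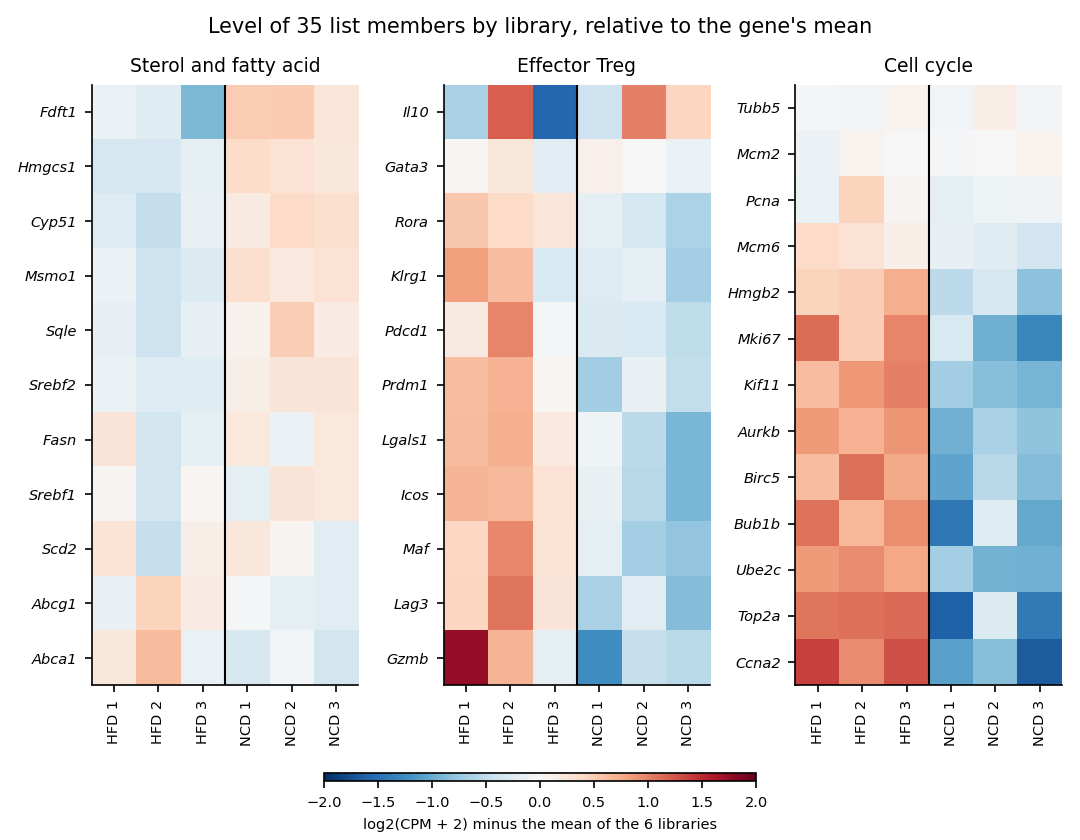
Level of 35 members named in the text of the sterol and fatty acid, effector Treg and cell cycle lists in each library (columns, HFD left of NCD, split by the line), as log2(CPM + 2) minus the mean of the 6 libraries, with genes ordered by log2 fold change from low to high down the page. Most sterol rows are lower in the HFD columns, most cell cycle rows are higher in all 3 HFD columns, and most effector rows are higher in HFD replicates 1 and 2 with HFD replicate 3 in between.

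Genes of cell division had the largest median of the 25 biological lists. Of 38 cell cycle genes, all tested, 20 had an unadjusted p under 0.05 in edgeR and were higher with HFD, beside 5.03% of all genes, and 0 were lower. The median log2 fold change was 1.46, 36 of the 38 were positive, and 25 had HFD libraries wholly above the NCD libraries, beside 6.53% of all genes. No member was called in the filtered edgeR fit of all 26 spleen libraries (0 of 38), beside 4 of all 14686 genes. DESeq2 called 2 (Hmgb2 and Bub1b), beside 37 of 14686. When the edgeR fit held only the 6 libraries compared, 8 of 37 were called, beside 16 of 12204 genes. These 8 were Hmgb2, Mki67, Top2a, Ccna2, Birc5, Aurkb, Kif11 and Ube2c. Without the filter on low counts edgeR called 85 of 38754 genes, Hmgb2, Bub1b and Mcm6 among them. The summed level was 3315, 3211 and 3296 CPM in HFD Tregs and 2236, 2465 and 2105 CPM in NCD Tregs, and here HFD replicate 3 was close to the other HFD libraries. Without HFD replicate 3, 13 of the 38 were past the unadjusted threshold upward, beside 5.2% of all genes, and the median was 1.46. Without NCD replicate 3, 11 were past it upward, beside 3.57% of all genes, and the median was 1.39.

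Mki67, which is present in dividing cells and absent from resting ones, was at 112, 71.6 and 101.3 CPM in HFD Tregs and 40.7, 24.7 and 19.4 CPM in NCD Tregs (log2 fold change 1.75 ± 0.62 SE, edgeR adjusted p = 0.382). Top2a, the topoisomerase that untangles replicated chromosomes, was at 133, 135 and 138 CPM with HFD and 18.8, 51 and 22 CPM with NCD (2.15, edgeR adjusted p = 0.382). Ccna2, the cyclin of DNA replication and entry into mitosis, was at 90.4, 67.1 and 85.0 CPM with HFD and 14.8, 17.7 and 9.35 CPM with NCD (2.54, edgeR adjusted p = 0.334). The groups of all 3 genes were far apart. Hmgb2, a chromatin protein of dividing cells, had the smallest p of the genes not called and was at 73.1, 75.3 and 89.2 CPM with HFD and 36.2, 41.9 and 29.1 CPM with NCD (1.15 ± 0.24 SE, edgeR adjusted p = 0.135). Bub1b, a checkpoint kinase of mitosis, was at 40.4, 29.5 and 35.7 CPM with HFD and 5.41, 14.9 and 7.79 CPM with NCD (1.91, edgeR adjusted p = 0.276).

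The difference was not seen throughout the list. The replication helicase gene Mcm6 was at 372, 351 and 310 CPM with HFD and 255, 242 and 218 CPM with NCD (0.53, edgeR adjusted p = 0.334), whereas Mcm2 was at 107, 122 and 117 CPM with HFD and 112, 115 and 121 CPM with NCD (-0.01, edgeR adjusted p = 0.987). Pcna, the sliding clamp of replication, was at 60.3, 91.0 and 69.0 CPM with HFD and 58.1, 61.6 and 63.0 CPM with NCD, so its groups overlapped (0.27, edgeR adjusted p = 0.624). Tubb5, a tubulin present in resting cells too, was at -0.02 and made up much of the summed level, with 1017, 1009 and 1095 CPM with HFD and 1003, 1149 and 1001 CPM with NCD.

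**Figure D3:**
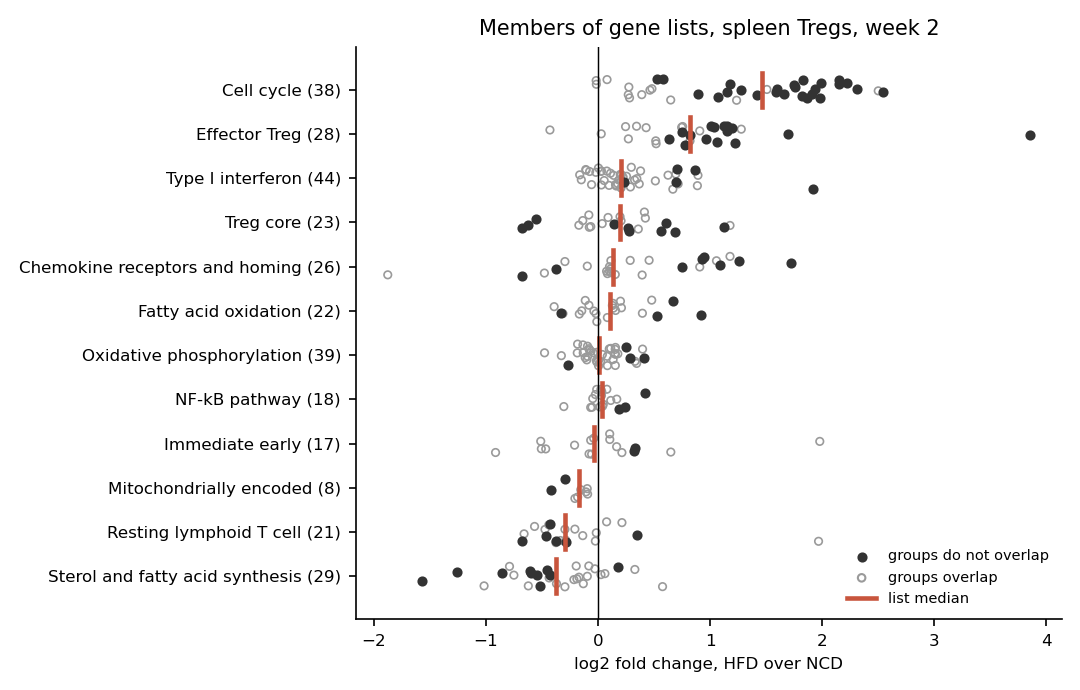
The log2 fold change, HFD over NCD, of every tested member of 12 gene lists (points; filled where the 3 HFD and the 3 NCD libraries do not overlap), with the list median as a bar and the number tested in brackets. The medians run from 1.46 for cell cycle genes to -0.37 for sterol and fatty acid synthesis.

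Genes of the resting lymphoid state had mostly negative log2 fold changes of smaller size. Of 21 such genes, all tested, 3 had an unadjusted p under 0.05 in edgeR and were lower with HFD, beside 4.52% of all genes. Past the same threshold, 1 was higher, beside 5.03%. In the filtered fits of all spleen libraries, 0 were called by edgeR or DESeq2. Ccr7 was called when the edgeR fit held only the 6 libraries compared. Of the 21, 17 had a negative log2 fold change, with a median of -0.29. The summed level was 4334, 4098 and 4898 CPM in HFD Tregs and 5057, 5577 and 5578 CPM in NCD Tregs, with HFD replicate 3 the closest to the NCD libraries. Without HFD replicate 3, 5 of the 21 were past the threshold downward, beside 3.95% of all genes, and the median was -0.40. Only 1 was past it without HFD replicate 1, HFD replicate 2 or NCD replicate 2 and with both tissues in 1 fit. The share of all genes past it downward was 3.52 to 5.28% in those fits. Lef1, a transcription factor of resting T cells, was at 294, 260 and 332 CPM with HFD and 337, 414 and 442 CPM with NCD (-0.43, edgeR adjusted p = 0.353). Ccr7, the receptor that guides T cells into lymph nodes, was at 475, 415 and 505 CPM with HFD and 648, 843 and 742 CPM with NCD (-0.68 ± 0.30 SE, edgeR adjusted p = 0.479). Il7r went against the list, at 505, 461 and 463 CPM with HFD and 453, 325 and 342 CPM with NCD (0.35, edgeR adjusted p = 0.562).

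**Figure D4:**
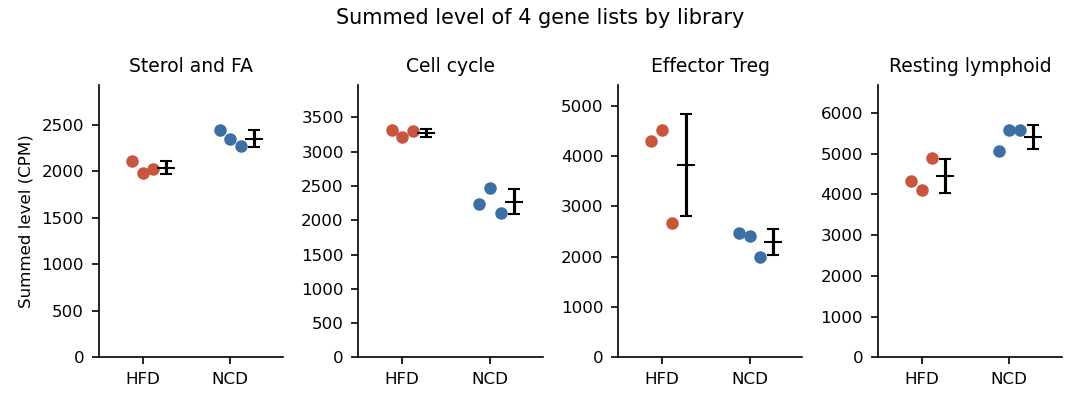
Summed level in CPM of the sterol and fatty acid (FA), cell cycle, effector Treg and resting lymphoid lists in each library, HFD left of NCD, with the mean ± SD beside each group. The cell cycle sums are 3211 to 3315 CPM in HFD Tregs and 2105 to 2465 CPM in NCD Tregs, while the effector sums of HFD Tregs spread from 2668 to 4520 CPM.

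Among the genes that guide Tregs to tissues, 0 were called by edgeR or DESeq2 in the filtered fits of all spleen libraries. Without the filter on low counts edgeR called 85 of 38754 genes, Ccr4 (edgeR adjusted p = 0.0052) among them. With only the groups compared it called 16 of 12204, Ccr7 (0.0417) among them. Adding the replicate block to that fit gave 24 of 12204, Ccr2 (0.0070) among them. Of 26 chemokine receptor and homing genes tested, 7 had an unadjusted p under 0.05 upward, beside 5.03% of all genes, and 1 (Ccr7) downward, with a median of 0.14. The upward count was 4 without HFD replicate 1, beside 5.15% of all genes, and 3 without NCD replicate 3, beside 3.57%. Ccr4 was at 80.8, 62.2 and 68.5 CPM with HFD and 61.0, 28.3 and 20.8 CPM with NCD (0.95, edgeR adjusted p = 0.353). Every HFD library was above every NCD library for Ccr4, if only just. Ccr2, the receptor of monocyte-attracting chemokines, was at 429, 276 and 202 CPM with HFD and 182, 106 and 92.9 CPM with NCD (1.26, edgeR adjusted p = 0.391).

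Of 23 Treg core genes tested, 0 were called in the filtered edgeR fit of all spleen libraries and 1, Capg, by DESeq2. Without the filter on low counts edgeR called 85 of 38754 genes, Capg (edgeR adjusted p = 5.26e-05) and Lrrc32 (0.0052) among them. With only the groups compared and the replicate block it called 24 of 12204, Capg (0.0339) among them. In edgeR 6 had an unadjusted p under 0.05 upward and 1 downward, beside 5.03% and 4.52% of all genes, and the median was 0.20. Foxp3 itself had a log2 fold change of 0.14 ± 0.083 (SE, edgeR adjusted p = 0.610). Il2ra, the high-affinity subunit of the IL-2 receptor, was at 304, 323 and 279 CPM with HFD and 332, 330 and 297 CPM with NCD (-0.08, edgeR adjusted p = 0.922). Ctla4, which competes for costimulatory ligands, was at 502, 455 and 327 CPM with HFD and 318, 337 and 302 CPM with NCD, with HFD replicate 3 inside the NCD range (0.42, edgeR adjusted p = 0.353). Capg, an actin-capping protein of effector Tregs, was at 577, 666 and 477 CPM with HFD and 393, 358 and 315 CPM with NCD (0.69, edgeR adjusted p = 0.260). In the other direction, Lrrc32, which presents latent TGF-beta on the Treg surface, was at 228, 163 and 172 CPM with HFD and 273, 360 and 237 CPM with NCD (-0.63, edgeR adjusted p = 0.353).

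Type I interferon response genes had mostly positive log2 fold changes, none of them called in the filtered fits of all spleen libraries. Of 44 tested, 7 had an unadjusted p under 0.05 and were higher with HFD, beside 5.03% of all genes, and 0 were lower. In those fits 0 were called (edgeR and DESeq2), and 37 had a positive log2 fold change with a median of 0.21. Without the filter on low counts edgeR called 85 of 38754 genes, Ifit1 (edgeR adjusted p = 0.0118) among them. The count of 7 was 3 (6.82%) without NCD replicate 1, beside 5.08% of all genes, and 3 with both tissues in 1 fit, beside 6.1%. It was 11 without HFD replicate 1, beside 5.15%. Ifit1, an antiviral RNA-binding protein, was at 137, 184 and 158 CPM with HFD and 63.8, 100 and 129 CPM with NCD (0.71, edgeR adjusted p = 0.353). Ifit3 was at 39.2, 67.1 and 52 CPM with HFD and 15.8, 31.6 and 38.9 CPM with NCD (0.87, edgeR adjusted p = 0.528), and it has a near-identical copy, Ifit3b, that could share its reads. Irf7, a factor that amplifies interferon production, was at 76.5, 85.6 and 68.0 CPM with HFD and 59.3, 84.8 and 88.6 CPM with NCD (-0.02, edgeR adjusted p = 0.985).

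In lipid use, the gene with the smallest p outside the sterol list was Cpt1a, the gate for long-chain fatty acids into mitochondria, at 131, 160 and 180 CPM with HFD and 58.4, 71.4 and 118 CPM with NCD (0.92 ± 0.21 SE, edgeR adjusted p = 0.187). DESeq2 called Cpt1a (DESeq2 adjusted p = 0.01645). So did edgeR without the filter on low counts (edgeR adjusted p = 5.913e-05) and with only the groups compared and the replicate block (0.04706). Slc25a20, the carrier of the next step, was at 67.4, 70.2 and 68.5 CPM with HFD and 44.0, 57.0 and 42.1 CPM with NCD (0.53, edgeR adjusted p = 0.382). The 22 tested genes of fatty acid oxidation had a median of 0.11, with 3 past the unadjusted threshold upward and 0 downward, beside 5.03% and 4.52% of all genes. Cd36, the fatty acid transporter, had no count in any of the 6 libraries. Pparg, the fat-sensing regulator of VAT Tregs, was at 2.84, 3.04 and 0 CPM with HFD and 0.471, 0.959 and 0 CPM with NCD, which is near the floor of detection.

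All 8 tested mitochondrially encoded genes had negative log2 fold changes, with a median of -0.17, and 3 had an unadjusted p under 0.05, beside 4.52% of all genes. Genes of the mitochondrial genome took 1.31, 1.09 and 1.15% of counts in HFD libraries and 1.39, 1.49 and 1.54% in NCD libraries, which did not overlap (two-sided exact permutation test, p = 0.1, the smallest possible). The 39 nuclear genes of oxidative phosphorylation had a median of 0.0066. The part that RNA quality or depth has in these values was not tested. The other 15 biological lists had medians from -0.12 (Myc and ribosome biogenesis, 23 genes) to 0.23 (T cell receptor signal, 27 genes).

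Of the other genes with the smallest p, Tnfrsf25, a TNF receptor that expands Tregs when engaged, was at 159, 148 and 186 CPM with HFD and 210, 266 and 240 CPM with NCD (-0.54, edgeR adjusted p = 0.135). Slc2a3, a glucose transporter, was at 151, 155 and 162 CPM with HFD and 229, 216 and 211 CPM with NCD (-0.49, edgeR adjusted p = 0.187). Neither gene had overlapping groups, the libraries within each group lay close together for Slc2a3, and the differences were modest. Morrbid, a long noncoding RNA known for its control of the death gene Bcl2l11 in myeloid cells, was at 23.6, 23.9 and 14.2 CPM with HFD and 9.89, 5.27 and 5.36 CPM with NCD (1.59, edgeR adjusted p = 0.235). F2r, a thrombin receptor, was at 104, 91.2 and 79.0 CPM with HFD and 57.7, 54.9 and 45.5 CPM with NCD (0.79, edgeR adjusted p = 0.187). DESeq2 called 37 of 14686 genes. Among them were Tnfrsf25 (DESeq2 adjusted p = 0.01106), Slc2a3 (0.01645), F2r (0.01645), Morrbid (0.02636) and most of the genes named next. Tnfrsf25 was also called by limma voom (adjusted p = 0.04857) and by edgeR without the filter on low counts (0.04328). Further genes named by the rule, with edgeR adjusted p from 0.172 upward, included Trim68 (-1.26), Espn (-0.79), Ubxn11 (-0.86), Tspan13 (-0.47) and Zfp866 (-0.87) on the lower side. On the higher side were Endod1 (0.86), Sec11c (0.59), Trerf1 (0.57), Atl3 (0.53) and Nfatc1 (0.52). All of these had groups that did not overlap. Ubxn11 overlaps Sh3bgrl3 and Zfp866 overlaps Atp13a1, so their values are uncertain.

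Markers of other cells ranged from absent to abundant. The summed level of 12 NK and CD8 T cell genes was 114, 97.8 and 146 CPM in HFD Tregs and 63.8, 76.9 and 98.3 CPM in NCD Tregs, with Klra4 at 0 and Nkg7 at 52.9, 34.4 and 73.2 CPM with HFD and 9.18, 25.6 and 31.0 CPM with NCD. That of 17 B cell genes was 1967, 2315 and 1733 CPM with HFD and 1333, 1586 and 1791 CPM with NCD, most of it Ighm, while Ms4a1 had a count in HFD replicate 2 alone (1.17 CPM) and Igkc was at 63.1, 14.5 and 1.31 CPM with HFD and 1.88, 3.60 and 265 CPM with NCD. The 14 macrophage and monocyte genes summed to 506 to 633 CPM with HFD and 487 to 503 CPM with NCD, nearly all of it Ctss, with Adgre1 at 0. The 13 stromal and endothelial genes summed to 261 to 347 CPM with HFD and 324 to 405 CPM with NCD, nearly all of it Pecam1, with Lum at 0. These levels lie below those of Foxp3, while Ighm, at 1659 to 2157 CPM with HFD and 1273 to 1482 CPM with NCD, lies above them. The 10 granulocyte genes summed to 0 to 0.936 CPM with HFD and 0 to 1.04 CPM with NCD. The part of other cells in the gene lists above was not tested.

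The same diets at the same week were compared in VAT Tregs, and the difference between tissues was tested as an interaction in 1 edgeR fit of 51 libraries in 18 groups. Of 15601 genes tested, 1 (0.00641%) differed between tissues, Furin, a protease that activates precursor proteins such as TGF-beta, and 1321 had an unadjusted p under 0.05. Scaled over both tissues, Furin was at 11.8, 12.3 and 13.4 CPM in HFD and 18.9, 15.7 and 11.9 CPM in NCD spleen Tregs, with overlap between the diets. In VAT Tregs Furin was at 99.4, 108 and 138 CPM with HFD and 56.3, 30.1 and 46.2 CPM with NCD. Its log2 fold change was -0.30 ± 0.24 in spleen and 1.38 ± 0.21 in VAT (SE, edgeR adjusted p in VAT = 0.000861), and the difference, spleen minus VAT, was -1.68 ± 0.32 (edgeR adjusted p = 0.0497). Furin was no longer called without spleen HFD replicate 1 (edgeR adjusted p = 0.0733), spleen HFD replicate 2 (0.221), spleen NCD replicate 1 (0.136), spleen NCD replicate 2 (0.0592), VAT HFD replicate 3 (0.154) or VAT NCD replicate 2 (0.254). It was not called either with the replicate block (0.0722), with only the groups compared (0.152, and 0.162 with the block) or with limma voom (0.0879), which called Kbtbd11 in its place.

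For Icos, Car5b and Unk, called in spleen, the difference between tissues did not pass the test in the filtered edgeR fit of both tissues. Icos had a log2 fold change of 1.08 in spleen and 0.36 in VAT in this fit (difference 0.72 ± 0.21 SE, edgeR adjusted p = 0.319). Car5b was at 2.74 in spleen and 0.73 in VAT (difference 2.01, edgeR adjusted p = 0.265), and Unk at -0.98 in spleen and -0.37 in VAT (difference -0.61, edgeR adjusted p = 0.578). All 3 genes had the same sign in both tissues. Without the filter on low counts edgeR called the difference for 211 of 42899 genes. Among them were Icos (0.69, edgeR adjusted p = 0.0143) and Car5b (1.97, 0.00178). The median log2 fold change was 1.46 in spleen and 0.20 in VAT for cell cycle genes, 0.82 in spleen and 0.36 in VAT for effector Treg genes and -0.37 in spleen and -0.15 in VAT for sterol and fatty acid genes, values for which the difference between tissues was not tested as a list. The 18 genes of the NF-kB pathway, which tumour necrosis factor and other danger signals switch on, had a median of 0.034 in spleen and 0.29 in VAT. Its member Nfkbia, the inhibitor that ends the signal, was at 697, 762 and 699 CPM in HFD and 707, 771 and 754 CPM in NCD spleen Tregs, and at 6722, 6342 and 6436 CPM in HFD and 3115, 4230 and 4753 CPM in NCD VAT Tregs (difference -0.74 ± 0.16 SE, edgeR adjusted p = 0.117, DESeq2 adjusted p = 0.0423).

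**Figure D5:**
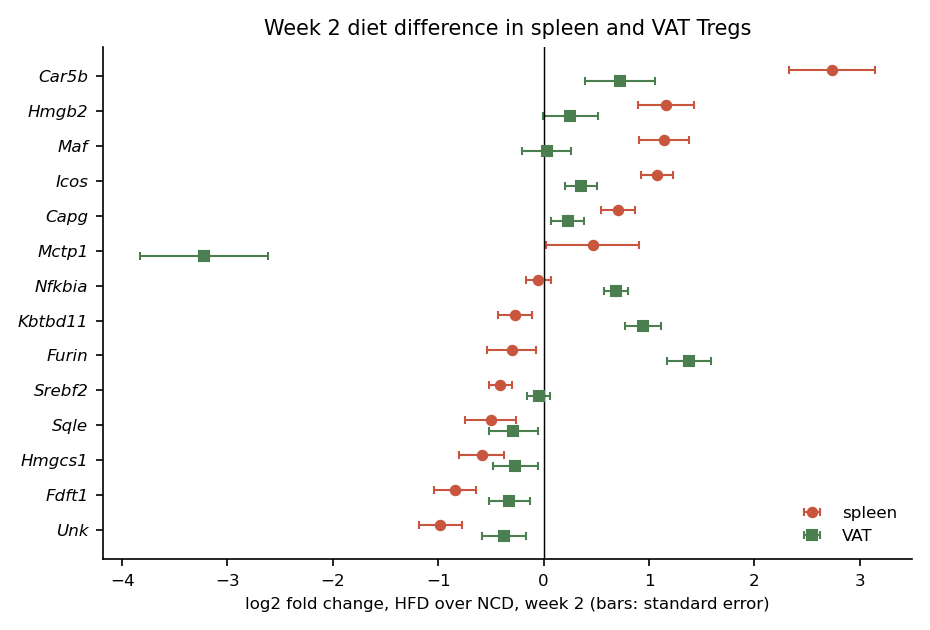
The log2 fold change, HFD over NCD, at week 2 in spleen Tregs (circles) and VAT Tregs (squares) for 14 genes, with standard errors, from the fit of both tissues: Icos, Car5b and Unk, the 4 with the smallest p of the difference once predicted genes were left out (Furin, Kbtbd11, Mctp1 and Nfkbia), and 7 examples chosen after their values were seen. Furin, at -0.30 in spleen and 1.38 in VAT, is the 1 gene of these whose difference passed the test in the fit shown.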

How the data were processed

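Bulk RNA of sorted Tregs was sequenced after 18 PCR cycles. The authors deposited unnormalized read counts for each gene symbol, made with STAR 2.7.3a and featureCounts on mm10, per the submitters' processing notes. The annotation release and the treatment of strand and of multiply matching reads are settings not given in the sources used here. Values of genes with near-identical copies or overlapping neighbours are uncertain. Titles gave the groups and the replicate numbers, and 0 columns of the table lacked a sample.

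Counts were fitted in R 4.3.3 with edgeR 4.0.16 (TMM scaling, low counts filtered by filterByExpr on the groups, robust quasi-likelihood fits with 1 mean per group), which kept 14686 of 55011 symbols in spleen and 15601 in both tissues. Each SE was obtained as the absolute log2 fold change over the square root of F. The groups of 3 were compared on single values with exact permutation tests. Alternatives were RLE scaling, no filter, DESeq2 1.42.0, limma 3.58.1 voom with quality weights, the replicate number as a block, only the groups compared, both tissues in 1 fit, leaving out each library and, added after seeing the data, leaving out 2 spleen libraries of other weeks that stood apart and counting list members in every fit. The fits were tested on simulated counts.

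Named genes were the 12 with the smallest p in each direction whose groups did not overlap and whose log2 CPM averaged 3 or more, every called gene at that level, the 2 smallest p in each of 25 biological lists, and a set always given (among them Foxp3, Il2ra, Ctla4, Pparg, Klrg1, Gata3, Il10, Ifit3, Irf7, Mki67, Ccr7, Cd36, Sqle and Furin). Receptor segments, ribosomal protein genes, pseudogenes and predicted genes were left out. Some genes that meet the rule are not reported here. Other list members are named as examples, chosen after their values were seen. Another 11 lists held markers of cell types. The members and lists were chosen with earlier results of these data known. Positions came from GENCODE M21, which matched 52936 symbols (96.2%).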

Additional observations from a re-analysis of the deposited data

Results flagged for a closer look

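Furin was the 1 gene for which the diet effect of week 2 differed between the tissues by the test of the difference itself, at -1.68 on the log2 scale, spleen minus VAT (edgeR adjusted p = 0.0497). Furin in spleen Tregs had a log2 fold change of -0.30, with overlapping diets, and in VAT Tregs of 1.38. The difference was -1.89 to -1.47 when each of the 12 libraries was left out in turn, with edgeR adjusted p from 0.00409 to 0.254.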

How the results depend on the processing

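The 4 genes called between HFD and NCD were also called with RLE scaling and in the fit without 2 spleen libraries of other weeks. Called counts were 85 with no filter on low counts, 37 with DESeq2, 4 with limma voom (2 of them shared), 4 with both tissues in 1 fit (2 shared) and 0 to 2 when each library was left out. Same-numbered HFD and NCD libraries correlated weakly, at 0.0116, 0.0506 and 0.0353 in their deviations from the group means over 9404 genes. Different-numbered libraries correlated at -0.0529 to 0.00868, so each same-numbered value was higher than any of these. Whether replicate numbers pair the libraries was not tested. The replicate block left the count at 4, the fit of only the groups compared gave 16, and that fit with the replicate block 24. For the difference between tissues, counts were 211 with no filter, 14 with DESeq2, 1 with limma voom (Kbtbd11), 0 with the replicate block, 0 with only the groups compared, 3 with those groups and the replicate block, and 0 to 8 with each library left out, against 1. The cause of these shifts was not tested. Most of the 80 named genes were uncalled to begin with, so for them staying uncalled counted as unchanged. Of 1213 values of these genes under the alternatives, 1116 kept direction and side of the threshold, 37 lost a call and 49 gained one. The call was lost in 10 of 15 alternatives for Unk, 7 of 15 for Car5b and 4 of 15 for Icos. The difference between tissues in Furin lost its call in 10 of 19. The other 11 values changed sign or, for Il21, fell to 0. These were Isg15 (-0.026 in voom) and Irf7 (0.000454 with only the groups compared and the replicate block) and, over the fits with 1 library left out, Il21 (0 to 5.66), Max (-0.13 to 1.07), Il10 (-2.50 to 0.14), Gata3 (-0.080 to 0.15) and Irf7 (-0.17 to 0.080). List medians ranged over the alternatives from 1.28 to 1.57 for cell cycle, 0.72 to 1.14 for effector Treg and -0.41 to -0.26 for sterol and fatty acid genes. Levels under the worth of 3 counts are at the limit of the depth. Pparg had 23 counts over the 3 HFD libraries and 6 over the 3 NCD libraries. All 12 counts of Il21 in the libraries compared were in HFD replicate 2.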
